A study of Mus musculus with 6 samples.

Results

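The proteasome genes of mouse liver were examined in livers of mice trained by running and of sedentary mice. Members were the rows of the deposited table whose symbol is Psma, Psmb, Psmc, Psmd or Psme followed by a number. The 3 inducible catalytic subunits Psmb8, Psmb9 and Psmb10 were left out. This gave 39 of the 16123 genes in the table, namely 15 genes of the 20S core particle, 20 of the 19S regulatory particle with its chaperones, and 4 activators. Of these, 38 passed the filter of a mean of at least 1 FPKM (a read level scaled for the length of the transcript and for the size of the library) over the 6 libraries and were among the 10266 genes tested.

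The exercise group was 3 healthy adult mice that ran 22 km each on a treadmill over 6 weeks, with liver taken 24 h after the last training. The sedentary group was 3 mice without treadmill training. The sources used here give no strain, sex, age in weeks or genotype for either group, and no housing of the sedentary mice. The p-values set a change against the spread between these libraries, which the fit estimates for each gene with help from all tested genes. With 3 mice a group, the p-values carry over to other animals only as far as that spread does. The libraries held 17941303 to 18371949 counts, of which the proteasome members took between 0.302% and 0.313%.

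The proteasome degrades proteins tagged with ubiquitin. Its 20S core is a barrel of alpha and beta rings, with the proteolytic sites on the inside of the beta rings. The 19S particle caps the barrel. Its base holds a ring of ATPases that unfold the substrate, and its lid holds the enzyme that removes the ubiquitin chain. In liver the proteasome clears regulatory and damaged proteins, and the subunits of a finished particle are present in fixed proportions.

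The proteasome genes differed little between the groups. Of 38 tested members 9 passed the threshold (edgeR, Benjamini-Hochberg adjusted p under 0.05 over all tested genes), against 38.1% of all tested genes. Only Psmd11 was higher in exercise, where 19.1% of all tested genes were higher, and 8 members were lower, where 19% of all tested genes were lower. The largest change of any member was 1.17-fold, a size that 24.6% of tested genes exceeded. In a test against a change of 1.2-fold no member passed, while 6.36% of tested genes did. At an unadjusted p under 0.05 in the ordinary edgeR test there were 14 of the 38 members. The share of all tested genes at that cut was not counted. It is at least 38.1%, since an adjusted p is never below the unadjusted one. DESeq2 called 24.5% of tested genes, and it called 1 member higher (12.4% of tested genes) and 7 lower (12.1%). The median log2 fold change, exercise minus sedentary, was −0.04 over the members and −0.0006 over all tested genes.

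**Figure D1:**
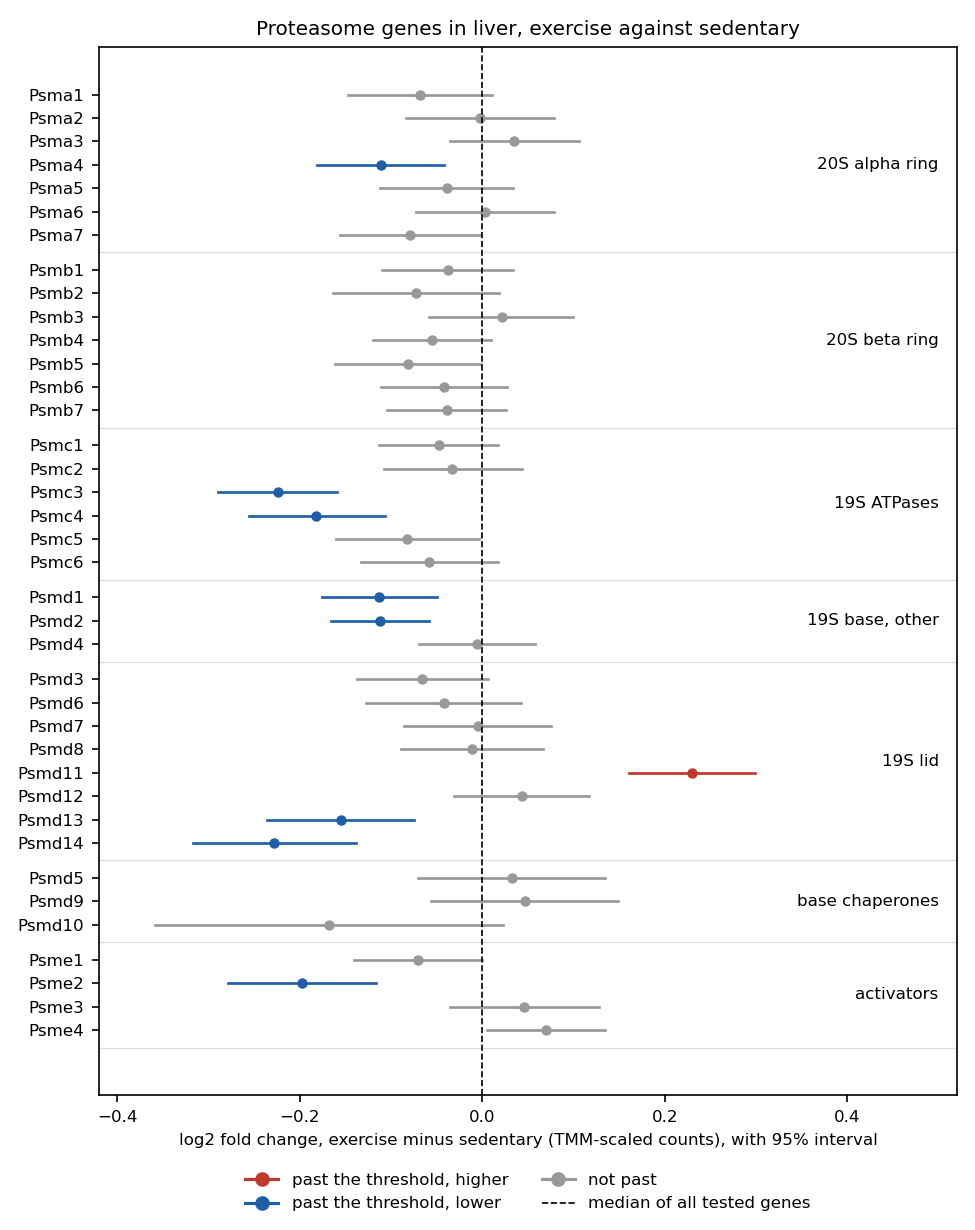
Log2 fold changes (x axis, exercise minus sedentary, TMM-scaled counts) of the 38 tested proteasome genes, grouped by their place in the complex, with 95% intervals as lines. Psmd11 is the only member past the threshold on the higher side, and 29 members in grey did not pass.

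Library scaling set the sign of most of these small values. With the edgeR scaling used here (TMM), 29 of 38 fitted values lay below 0, but 21 of the 29 members that did not pass changed sign under at least 1 of 8 other ways of scaling or units. Without TMM, 7 of 38 members were called higher and 4 lower, beside 34.4% of all tested genes higher and 11.7% lower. By limma on log2(TPM + 1), 6 members were called higher and 0 lower, beside 34.5% and 8.58% of all tested genes. On log2(FPKM + 1) it called 4 members higher and 2 lower, beside 26.3% and 10.5%, and on log2(FPKM + 0.1) 3 and 2, beside 25.3% and 10%. A scaling of the counts shifts all genes alike, so the distance of a list's median from that of all tested genes cannot change with it. That distance was 0.040 below for the 20S core and 0.053 below for the 19S on the log2 scale, and over all 20 ways of fitting it ran from 0.018 to 0.054 and from 0.030 to 0.069. The 9 members past the threshold kept their sign under all 8 scalings, but not their size. The 8 lower members ran from −0.228 (Psmd14) to −0.111 (Psma4) with TMM, from −0.150 (Psmd14) to −0.034 (Psma4 and Psmd2) without TMM and from −0.117 (Psmd14) to −0.002 (Psmd2) by limma on log2(TPM + 1). Psmd11 passed with the same sign in 18 of the 19 alternatives, Psmc3 and Psmd14 in 17, Psmc4 and Psme2 in 15, Psmd2 and Psmd13 in 14, Psmd1 in 13 and Psma4 in 9.

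**Figure D2:**
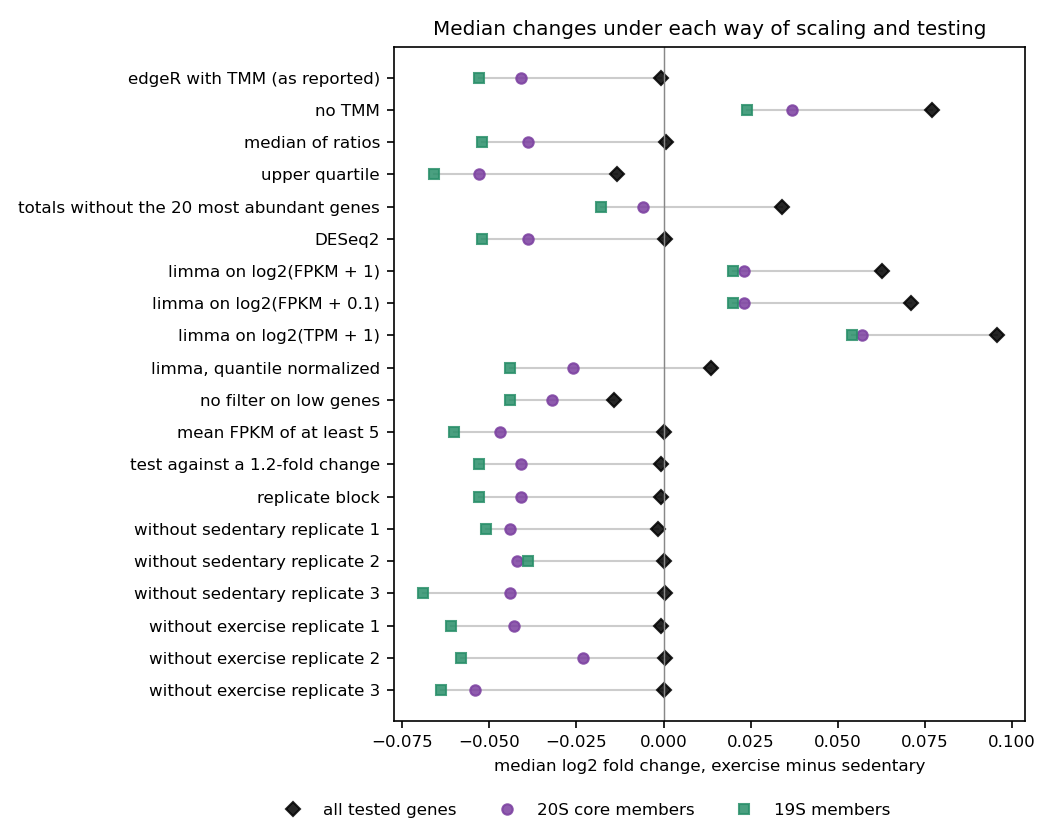
Median log2 fold change (x axis, exercise minus sedentary) of all tested genes, of the 14 tested 20S core members and of the 19S members under each of 20 ways of fitting (y axis). The side of 0 on which the proteasome medians lie changes with the scaling, while their distance from the median of all tested genes is the same by construction under each scaling of the counts.

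Of the core, the 19S and the activators, the 20S core had the smallest share of members past the threshold. Of its 14 tested members 1 passed, lower, and none was higher (7.14% past the threshold, beside 38.1% of all tested genes). The median log2 fold change was −0.04 and fitted values ran from −0.11 to 0.04. The 13 members that did not pass had 95% intervals between −0.16 and 0.11 on the log2 scale. Core genes were also abundant, at a median of 119 FPKM over the libraries and a range of 77.7 to 186 FPKM. The summed FPKM of the 14 core members was 1718, 1708 and 1715 in the sedentary libraries and 1776, 1691 and 1772 in the exercise libraries. By FPKM, exercise replicate 2 was below all sedentary libraries and the other exercise libraries were above them. The mean log2 TMM-scaled count (CPM) of the core was 6.375, 6.369 and 6.371 in the sedentary and 6.345, 6.285 and 6.361 in the exercise libraries. On that scale all exercise libraries were below the sedentary ones, with exercise replicate 2 again the lowest.

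Exercise replicate 2 was the lowest of its group in 11 of the 14 core members by TMM-scaled counts, but in 6 of the 20 members of the 19S. Without it the core median was −0.02 in place of −0.04, and without exercise replicate 3 it was −0.05. The number of core members called lower was 0 without sedentary replicate 2 and 2 without exercise replicate 1 or exercise replicate 3, against 1 with all libraries.

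Within the alpha rings, which gate the barrel, Psma4 was called lower with TMM. Psma4 (chromosome 9, 54950781 to 54958034 in GRCm38.p6) was at 116, 125 and 119 FPKM in the sedentary libraries and 118, 120 and 113 FPKM in the exercise libraries. The groups overlap on that scale but not by TMM-scaled counts, which gave a change of −0.11 on the log2 scale (SE 0.04, adjusted p = 0.00869). The call held in 9 of the 19 alternatives. Among the fits where it ended were DESeq2 (adjusted p = 0.0589) and edgeR without sedentary replicate 2 (0.0973). It also ended in edgeR without TMM (log2 fold change −0.034, adjusted p = 0.455) and in limma on log2(TPM + 1) (−0.004, adjusted p = 0.949). The alpha subunit gene Psma3 had the highest log2 fold change of the core and was at 100, 107 and 102 against 113, 113 and 104 FPKM, with overlapping groups (log2 fold change 0.04, adjusted p = 0.457). The count of Psma3 was not whole in sedentary replicate 1 (1716.2) and was whole in the other libraries, so a read may have been shared with another gene. The testis subunit Psma8 had 11 to 18 counts per library (0.550, 0.720 and 0.680 FPKM against 0.440, 0.520 and 0.610 FPKM), fell under the filter and was not tested.

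Of the 7 beta subunits none passed, beside 38.1% of all tested genes (edgeR, and 1 had an unadjusted p under 0.05). The catalytic subunit Psmb5, which carries the chymotrypsin-like site, was at 132, 140 and 130 FPKM in the sedentary libraries and 136, 125 and 138 FPKM in the exercise libraries. Its groups overlap, and its log2 fold change of −0.08 (adjusted p = 0.102) was the lowest of the beta subunits. The non-catalytic Psmb3 had the highest log2 fold change of the beta subunits, at 169, 156 and 167 against 173, 168 and 181 FPKM (log2 fold change 0.02, adjusted p = 0.711). Psmb6 and Psmb7, the other constitutive catalytic subunits, were at −0.04 and −0.04. Psmb11, the thymus subunit, is not analysed here.

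The 19S regulatory particle held most of the calls. Of its 20 members 6 fell, Psmd11 rose and 13 did not pass, which is 35.0% past the threshold and near the 38.1% of all tested genes. By direction, 19% of all tested genes were lower and 19.1% higher. Without TMM 3 members of the 19S were called lower and 3 higher, beside 11.7% and 34.4% of all tested genes. By limma on log2(TPM + 1) 0 were lower and 4 higher, beside 8.58% and 34.5%. By TMM-scaled counts exercise and sedentary libraries were separate in 8 of the 20, and in 1 of the 14 tested core members, where 47% of all tested genes did not overlap. The 19S genes were less abundant than the core, at a median of 54.8 FPKM. The summed FPKM of the 19S was 65.3%, 65.8% and 64.7% of the core sum in the sedentary libraries and 64.0%, 66.4% and 63.2% in the exercise libraries, which overlap. The mean log2 level of the 19S relative to the core was −0.25 ± 0.009 in sedentary and −0.27 ± 0.03 in exercise libraries (SD, n = 3); the values of the groups overlap. No test of the core against the 19S was made, since the members were chosen with earlier results known.

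Among the 6 ATPases of the base, which pull the substrate into the barrel, 2 fell and 4 did not pass. This is 33.3% past the threshold, where 38.1% of all tested genes passed and 19% were lower. With TMM all 6 fitted values lay below 0. Psmc3 (chromosome 2, 91054016 to 91059438) was at 99.1, 90.4 and 96.7 FPKM in the sedentary libraries and 87.4, 85.1 and 85.3 FPKM in the exercise libraries. All exercise values lay below all sedentary ones, at a log2 change of −0.22 (SE 0.03, adjusted p = 1.85e-07). Psmc4 (chromosome 7, 28041702 to 28050092) was at 72.7, 74.6 and 67.7 against 67.2, 66.8 and 65.4 FPKM. Its exercise values also lay below all sedentary ones, the nearest by less than 1 FPKM, at a log2 change of −0.18 (SE 0.04, adjusted p = 9.03e-05). Psmc1, Psmc2, Psmc5 and Psmc6 had log2 fold changes between −0.08 and −0.03 with TMM. Their signs changed with the scaling, and by limma on log2(TPM + 1) they were at 0.059, 0.073, 0.024 and 0.049. Reckoned against Psmc1 in the same library, which needs no library scaling, Psmc4 was at 0.831, 0.814 and 0.782 of Psmc1 FPKM in sedentary libraries. In exercise libraries it was at 0.752, 0.728 and 0.731. Psmc3 was at 1.133, 0.985 and 1.116 of Psmc1 FPKM in sedentary and 0.978, 0.928 and 0.954 in exercise libraries, apart only narrowly. Psmc3 and Psmc4 had already been called lower and Psmc1 had not passed, so these ratios are descriptions.

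The large scaffold subunits of the base fell as well, by less. Psmd2 (chromosome 16, 20651122 to 20663414) was at 77.3, 76.2 and 76.9 FPKM in the sedentary libraries and 75.5, 73.1 and 76.0 FPKM in the exercise libraries. Psmd1 (chromosome 1, 86064619 to 86139295) was at 40.4, 40.2 and 40.9 against 40.1, 40.4 and 37.9 FPKM. On the FPKM scale Psmd2 separated narrowly and Psmd1 overlapped. TMM-scaled counts gave log2 changes of −0.11 for Psmd2 (SE 0.03, adjusted p = 0.000672) and −0.11 for Psmd1 (SE 0.03, adjusted p = 0.0035), and neither passed without TMM (−0.034 and −0.035) or by limma on log2(TPM + 1) (−0.002 and −0.003). Psmd1 overlaps Htr2b on the genome, and it is not stated whether counting used strand. The ubiquitin receptor gene Psmd4 was at a log2 fold change of −0.01 with a 95% interval of −0.07 to 0.06.

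Of the 8 lid members 1 rose, 2 fell and 5 did not pass, or 37.5% past the threshold beside 38.1% of all tested genes. Psmd11, a lid scaffold that bridges to the core (chromosome 11, 80428615 to 80473248), was at 51.7, 50.3 and 54.2 FPKM in the sedentary libraries and 62.5, 64.7 and 64.2 FPKM in the exercise libraries. Psmd14, the lid's deubiquitinase (chromosome 2, 61711694 to 61800376), was at 40.8, 38.0 and 40.4 against 34.5, 36.7 and 35.9 FPKM. Neither gene's groups overlap: all exercise values of Psmd11 are above, and all of Psmd14 below, the sedentary ones. By edgeR Psmd11 rose by a log2 change of 0.23 (SE 0.03, adjusted p = 3.34e-07) and Psmd14 fell, at −0.23 (SE 0.04, adjusted p = 4.24e-05). By limma on log2(TPM + 1) Psmd11 passed (adjusted p = 0.00145) and Psmd14 did not (0.0624).

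The ratio of Psmd11 to Psmd14 FPKM, which does not depend on library scaling, was 1.27, 1.32 and 1.34 in the sedentary and 1.81, 1.77 and 1.79 in the exercise libraries, or 1.36-fold higher on the means. This pair was chosen after its values were seen, so the ratio is a description. Psmd13, another lid subunit (chromosome 7, 140882394 to 140898642), was at 47.7, 48.0 and 48.3 FPKM in sedentary and 47.2, 45.9 and 43.0 FPKM in exercise libraries. All exercise values of Psmd13 lay below the sedentary ones, at a log2 change of −0.16 (SE 0.04, adjusted p = 0.00163). Psmd7, which forms a dimer with Psmd14 in the lid, was at −0.01 with a 95% interval of −0.09 to 0.08, and Psmd3, Psmd6, Psmd8 and Psmd12 lay between −0.07 and 0.04.

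The bases just before the starts of the genes that moved furthest apart are shown from RefSeq on GRCm38.p6, 250 bases each, with any match to 5 searched motifs in capitals. The Psmd11 stretch is chr11:80428365-80428614 on the plus strand, and the Psmd14 stretch is chr2:61711444-61711693 on the plus strand.
Psmd11: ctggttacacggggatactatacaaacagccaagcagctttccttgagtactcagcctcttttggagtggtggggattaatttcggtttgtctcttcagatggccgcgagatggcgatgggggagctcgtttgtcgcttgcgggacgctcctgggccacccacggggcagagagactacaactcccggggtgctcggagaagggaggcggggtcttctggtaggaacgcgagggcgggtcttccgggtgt
Psmd14: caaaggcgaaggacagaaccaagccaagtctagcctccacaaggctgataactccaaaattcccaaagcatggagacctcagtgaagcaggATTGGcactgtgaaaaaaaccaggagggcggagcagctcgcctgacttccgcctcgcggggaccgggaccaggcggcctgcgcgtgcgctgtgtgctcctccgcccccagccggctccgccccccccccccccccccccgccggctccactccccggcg
Psmd14 holds 1 match, to the CCAAT box read on the other strand (ATTGG, from 159 to 155 bases before the start), and Psmd11 holds none in this stretch. The motifs were the antioxidant response motif TGACNNNGC, CCAAT, the heat shock motif GAANNTTC, the STAT motif TTCNNNGAA and the interferon motif (GAAA, any 2 bases, GAAA), each searched on both strands, and no matches overlapped in these stretches.

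**Figure D3:**
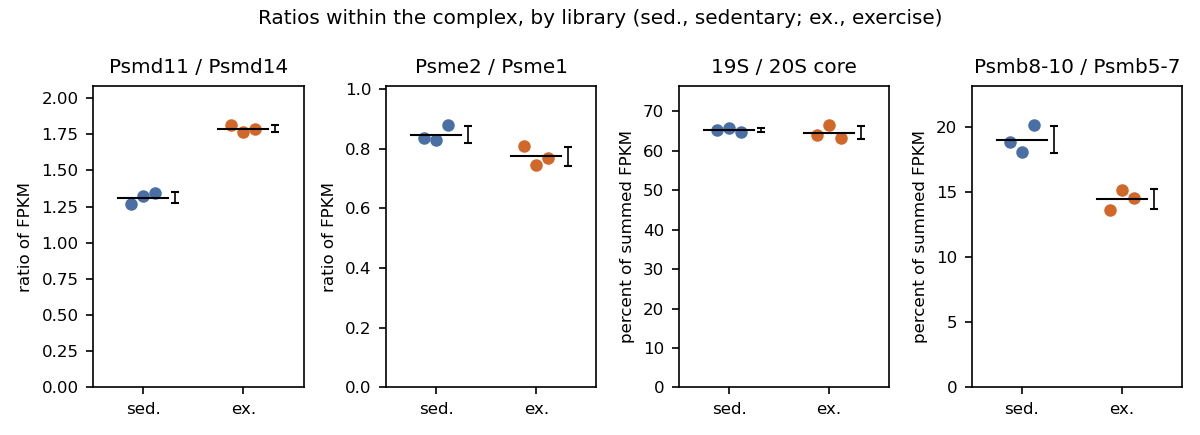
Ratios of proteasome genes within each library (y axes, ratio or percent of FPKM; points are the 3 libraries of a group, bars the mean, whiskers the SD). Psmd11 over Psmd14 went from 1.31 to 1.79 on the means and the 19S share of the core overlapped between groups.

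The 3 members that help assemble the base and leave the finished particle, Psmd5, Psmd9 and Psmd10, did not pass. In the same test (edgeR) 38.1% of all tested genes passed, and none of the 3 had an unadjusted p under 0.05. Psmd9 was at 12.5, 12.6 and 13.1 FPKM in sedentary and 14.0, 13.6 and 13.9 FPKM in exercise libraries. These values do not overlap, but TMM-scaled counts gave a log2 change of 0.05 (adjusted p = 0.504). Psmd9 is an example of how FPKM gave higher exercise values than TMM-scaled counts did. By FPKM the groups were apart in 14 of the 38 members, against 51% of all tested genes, and 8 of those 14 were higher. By TMM-scaled counts they were apart in 11 members, against 47% of all tested genes, and 1 of those 11 was higher. The direction of separation was not counted over all tested genes. Psmd10 was the least abundant tested member at 8.89 and 8.32 FPKM on the means, and with a 95% interval of −0.36 to 0.02 it was the least precise. It overlaps Atg4a on the genome.

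Of the 4 activators, which open the core in place of the 19S, Psme2 fell (25.0% past the threshold, beside 38.1% of all tested genes). Psme2 (chromosome 14, 55587440 to 55591101), a subunit of the interferon-inducible PA28 ring, was at 106, 103 and 106 FPKM in the sedentary libraries and 102, 93.3 and 92.9 FPKM in the exercise libraries. All exercise values lay below the sedentary ones, at a log2 change of −0.20 (SE 0.04, adjusted p = 8.12e-05). Its counts were not whole, so part of its reads may be shared with another gene, and the table also lists the related gene Psme2b. Psme1, its partner in the ring, was at 127, 125 and 121 against 126, 125 and 121 FPKM. The groups of Psme1 overlap by FPKM, and it did not pass by TMM-scaled counts (log2 fold change −0.07, adjusted p = 0.109). The ratio of Psme2 to Psme1 FPKM was 0.836, 0.828 and 0.878 in sedentary and 0.810, 0.744 and 0.768 in exercise libraries, without overlap, a pair again chosen after its values were seen.

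The other activators did not pass. Psme3, the nuclear PA28 subunit, was at 23.4, 24.7 and 22.5 FPKM in sedentary and 26.0, 26.0 and 24.9 FPKM in exercise libraries (log2 fold change 0.05, adjusted p = 0.388). Psme4, which encodes PA200, was at 18.12, 17.54 and 18.26 against 20.49, 19.98 and 19.04 FPKM (log2 fold change 0.07, adjusted p = 0.0844). Neither pair of groups overlaps by FPKM. Psme4 passed in 6 of the 19 alternatives, among them the fit without exercise replicate 3, and it overlaps Erlec1 on the genome.

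The 3 inducible catalytic subunits, set apart from the members, all fell and by more than any member. Psmb9 went from 20.2 ± 0.873 to 13.6 ± 0.975 FPKM, Psmb10 from 31.9 ± 0.618 to 24.5 ± 1.03 FPKM and Psmb8 from 29.7 ± 2.10 to 24.5 ± 1.57 FPKM (SD, n = 3), with edgeR adjusted p of 1.84e-07, 1.75e-09 and 6.1e-06. Their summed FPKM was 18.8%, 18.1% and 20.1% of that of the constitutive Psmb5, Psmb6 and Psmb7 in the sedentary libraries and 13.6%, 15.1% and 14.5% in the exercise libraries. Interferon-linked genes of antigen processing fell in the same libraries, with a median of −0.28, 6 of 9 past the threshold as lower and 0 as higher (19% and 19.1% of all tested genes), among them Tap1 (1.48-fold), Tapbp (1.24-fold) and Tap2 (1.24-fold). Of 7 Kupffer cell markers 5 passed the threshold, all lower, where 19% of all tested genes were lower. Vsig4 and Timd4 did not pass (log2 fold changes −0.045 and 0.015). The Kupffer cell markers summed to 195 to 198 FPKM in sedentary and 166 to 168 FPKM in exercise libraries, with no marker at 0. Cd5l was the largest part of that sum (73.67 to 78.07 against 60.19 to 61.34 FPKM). The part of these cells in the falls of Psme2 and the inducible subunits was not tested, and in whole liver fewer cells of a type and less RNA per cell cannot be told apart. Summed markers of other cell types also separated the groups. Stellate cell markers went from 66.2 to 68.2 FPKM in sedentary to 85.3 to 86.0 FPKM in exercise libraries. Most of that sum was Dcn (61.65, 63.5 and 62.51 against 80.21, 79.43 and 80.16 FPKM). Lrat was also called higher, Pdgfrb did not pass (log2 fold change −0.069), and Col1a1, under the filter, was lower by FPKM. Endothelial markers went from 61.9 to 63.7 FPKM in sedentary to 67.8 to 74.6 FPKM in exercise libraries. Most of that sum was Clec4g, which did not pass (edgeR, adjusted p = 0.43), while Stab2 and Kdr were called higher. Cholangiocyte markers (3.72 to 3.89 against 2.70 to 3.24 FPKM) and pancreas markers (11.3 to 11.7 against 7.45 to 8.37 FPKM) were lower in exercise. Nearly all of the pancreas sum was Cela1, and of the cholangiocyte markers only Sox9 was tested and did not pass. Markers of T and B cells summed to 3.56 to 4.39 FPKM over all libraries, with overlap. All 6 hepatocyte markers were at 517 FPKM or more in each library. All passed the threshold, 3 higher and 3 lower, where 38.1% of all tested genes passed. Of these markers Serpina1e was furthest, at −0.64 on the log2 scale, and Ttr was called at 0.051. The hepatocyte markers summed to 79470 to 80810 FPKM in sedentary and 75950 to 76560 FPKM in exercise libraries. Serpina1e alone went from 12846 to 13140 FPKM in sedentary to 8659 to 8877 FPKM in exercise libraries. Alb, the largest part of the sum, overlapped (45729 to 47216 against 45608 to 46452 FPKM), and Ttr, Cps1 and Tat were called higher. The part of these shifts in the members' values was not tested.

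**Figure D4:**
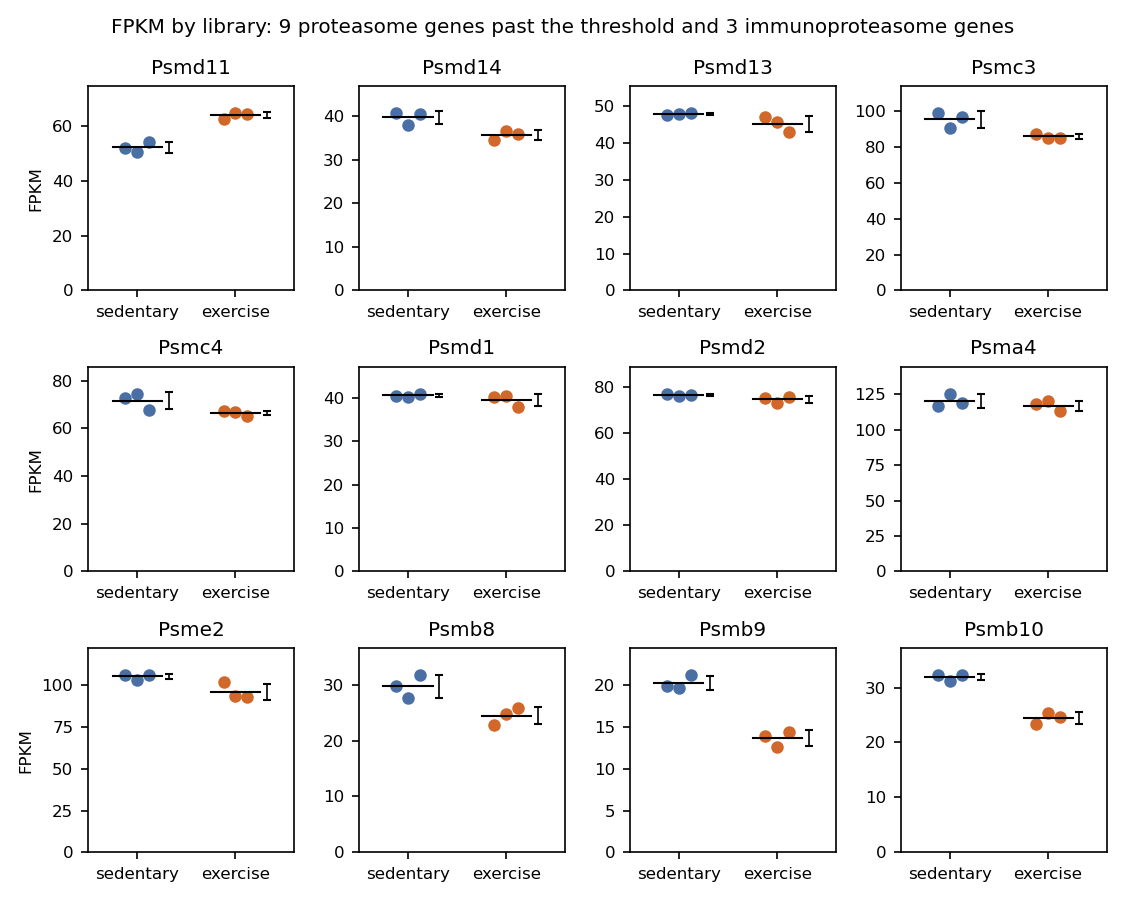
FPKM (y axes from 0) in each of the 3 sedentary and 3 exercise libraries for the 9 proteasome genes past the threshold and the 3 inducible subunits, with the mean as a bar and the SD as whiskers. Psmd11 is higher in all exercise libraries, and the inducible subunits separate by more than the 8 lowered members.

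Genes that build, equip or feed the proteasome passed the threshold about as often as the 38.1% of all tested genes. Of 8 tested subunits and assembly factors outside the naming rule, 2 rose, 1 fell and 5 did not pass (37.5% past the threshold). Adrm1, a ubiquitin receptor of the 19S, rose 1.08-fold and Akirin2, an importer of proteasomes into the nucleus, rose by 0.27 on the log2 scale, while Pomp, the chaperone of core assembly, fell 1.14-fold from 199 ± 4.43 to 182 ± 2.21 FPKM (SD, n = 3). The adjusted p of Pomp was 1.21e-05, and that of Adrm1 was 0.00881 and rose to 0.0562 with DESeq2. Of 11 enzymes and regulators bound to the proteasome 2 rose and 2 fell (36.4%). Txnl1, a thioredoxin-like partner of the 19S, rose 1.11-fold and Zfand5, an activator of degradation, rose by 0.14 on the log2 scale, and Psmf1, an inhibitor of the core, and Ipo9 fell 1.13-fold and 1.12-fold. With DESeq2 the calls of Zfand5, Psmf1 and Ipo9 ended (adjusted p = 0.137, 0.0764 and 0.106), and by limma on log2(TPM + 1) Psmf1 and Ipo9 were at −0.06 and −0.06 and did not pass.

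Ubiquitin shuttles and the p97 system, which bring substrates to the proteasome, were at a median of 0.01, with 4 of 15 called higher and 2 called lower (40.0%). Ubqln4 rose most, from 10.3 ± 0.690 to 14.5 ± 0.581 FPKM (SD, n = 3; log2 fold change 0.41, adjusted p = 2.39e-09). Ubxn4 rose 1.11-fold and Ubqln1 1.06-fold, and Ddi2, the protease that activates NRF1, was at −0.13 on the log2 scale and fell. The call of Ubqln1 ended with DESeq2 (adjusted p = 0.0729), and that of Ddi2 without TMM (edgeR, adjusted p = 0.179). Of 5 tested genes of ubiquitin and its activation Ubb and the activating enzyme Uba1 were called lower (40.0% past the threshold, beside 38.1% of all tested genes). Their log2 fold changes of −0.07 and −0.08 turned to 0.03 for both by limma on log2(TPM + 1). The call of Ubb also ended with DESeq2 (adjusted p = 0.0717). Counts of Ubb and Ddi2 were not whole, so part of their reads may be shared with other genes. As complexes of like build, the COP9 signalosome, kin to the lid, had 1 of 10 members higher and 2 lower, and the chaperonin CCT had 1 of 8 lower, at medians of −0.01 and −0.03. These are 30.0% and 12.5% past the threshold, beside 38.1% of all tested genes. With DESeq2 the 4 calls ended (adjusted p from 0.0638 to 0.173).

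Among transcription factors known to act on proteasome genes, Nfe2l1 and Nfe2l2 rose. Nfe2l1 encodes NRF1, which drives subunit genes when the proteasome is short, and went from 26.2 ± 0.0153 to 32.6 ± 0.751 FPKM (SD, n = 3; log2 fold change 0.23, adjusted p = 1.61e-08). Nfe2l2, which encodes NRF2, rose 1.27-fold (adjusted p = 3.76e-10), and Bach1, a repressor at the same sites, and Stat3 each fell 1.19-fold. Of the 14 tested genes of this list 3 rose and 3 fell (42.9% past the threshold). This is near the 38.1% of all tested genes, of which 19.1% were higher and 19% lower. These are transcript levels, and the activity of NRF1 and NRF2 was not measured.

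The antioxidant response motif, to which NRF1 and NRF2 bind, was searched in windows from 250 bases before to 50 after the start, which the RefSeq table gives for 32 of the 39 members in 35 windows. Psma8, Psmb1, Psmb2, Psmb7, Psmc3, Psmd3 and Psmd7 were not matched. It was in 17.1% of the 35 windows and in 12.4% of the 32851 windows of all genes. CCAAT was in 34.3% against 37.4%, the interferon motif in 11.4% against 3.44%, the heat shock motif in 2.86% against 7.86% and the STAT motif in 2.86% against 8.30%. The 4 matches to the antioxidant response motif that lie before the annotated gene start are shown with up to 20 bases on each side and the match in capitals, on the strand of the gene. They are at chr14:54618014-54618062 on the minus strand (Psmb5), and on the plus strand at chr14:45329577-45329625 (Psmc6), chr11:107479278-107479309 (Psmd12) and chr5:123228139-123228187 (Psmd9).
Psmb5: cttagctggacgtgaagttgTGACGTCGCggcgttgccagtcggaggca
Psmc6: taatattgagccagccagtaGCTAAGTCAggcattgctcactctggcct
Psmd12: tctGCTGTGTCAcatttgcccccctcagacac
Psmd9: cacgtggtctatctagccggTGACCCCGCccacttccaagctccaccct
The 6 members with a match were Psmb5, Psmb6, Psmc6, Psmd9, Psmd12 and Psme4. With TMM none of them passed the threshold, beside 38.1% of all tested genes, with log2 fold changes from −0.08 to 0.07. Without TMM and by limma on log2(TPM + 1), Psmd9, Psmd12 and Psme4 were called higher. In those fits 34.4% and 34.5% of all tested genes were called higher. A match is a run of letters and no measured binding site.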

How the data were processed

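Liver RNA of 6 mice was sequenced, 1 library each, and the authors deposited 1 table with 3 values per gene and library. Per the file headers these are a read count, an FPKM and a TPM. The deposited read counts are estimated counts, since they were not all whole (1165 of 16123 genes), and were rounded. Tools named in the submitters' processing notes are cutadapt, featureCounts and MultiQC, and the build named is GRCm38.p6. The aligner, the annotation, the strand setting and all versions are not given in the sources used. The authors' FPKM and TPM values were used as deposited; 6 columns of averages were not used.

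The 10266 genes at a mean of 1 FPKM or more were compared with edgeR 4.0.16 in R 4.3.3, with TMM scaling (factors 0.972 to 0.977 in sedentary and 1.03 in exercise libraries), the quasi-likelihood F test, two-sided and without covariates, and Benjamini-Hochberg adjustment at 0.05. Log2 fold changes are exercise minus sedentary. The standard error is the log2 fold change over the square root of F, and 95% intervals use the test's degrees of freedom. DESeq2 1.42.0, limma 3.58.1 on log2(FPKM + 1), log2(FPKM + 0.1) and log2(TPM + 1), other scalings and filters, the replicate number as a block, and fits without each library were the alternatives. An exact permutation test of 3 libraries against 3 cannot go below p = 0.1 and was not used. The precision of a value rests on its count, on the 3 libraries per group and on a spread that the fit estimates partly from the other tested genes.

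Members and gene lists were chosen with earlier results of these data known, so lists are described by counts and medians, with no test. Values per library were given for members past the threshold, for the highest and lowest 2 of the core and of the 19S, for the activators and for members under the filter; of each other list up to 4 genes with the smallest p were named, except 1 gene that is not reported here. Gene positions and promoter windows are from RefSeq on GRCm38.p6, counted from 1. Proteins were not used here.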

Additional observations from a re-analysis of the deposited data

How the results depend on the processing

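All tested genes past the threshold numbered 2512 with DESeq2 and 653 in the test against a 1.2-fold change, against 3913, and 3402 to 3491 without 1 library. Of all tested genes, 34.4% were called higher without TMM, 26.3% by limma on log2(FPKM + 1), 25.3% on log2(FPKM + 0.1) and 34.5% on log2(TPM + 1), against 19.1% with TMM. Of the 20S core, 2 members were higher without TMM, against 0, and still 0 without any 1 library. The number of core members lower, 1, was 0 without TMM, with library totals that leave out the top 20 genes, with DESeq2, in all 4 limma fits and in the test against a 1.2-fold change, 2 with the upper quartile, and 0 to 2 without 1 library. Of the 19S, 3 members were higher without TMM and by limma on log2(FPKM + 1), 2 on log2(FPKM + 0.1), 4 on log2(TPM + 1) and 0 in the test against a 1.2-fold change, against 1. Lower were 3 without TMM, 2 by limma on log2(FPKM + 1) and on log2(FPKM + 0.1), 0 on log2(TPM + 1) and 0 in the test against a 1.2-fold change, against 6. The median log2 fold change of the core turned to 0.037 without TMM, 0.023 by limma on log2(FPKM + 1) and on log2(FPKM + 0.1), and 0.057 on log2(TPM + 1). That of the 19S turned to 0.024, 0.020, 0.020 and 0.054 in the same fits. These fits put the median of all tested genes at 0.06 to 0.10. Without 1 library the core median was −0.054 to −0.023 and the 19S median −0.069 to −0.039.

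The log2 fold change of Uba1 turned to 0.030 on log2(TPM + 1), that of Ubb to 0.031 there and to 0.008 without TMM, and that of Cct7 to 0.015 on log2(TPM + 1). With the replicate block 3846 genes passed, with the same counts of core and 19S members as without it. Samples of the same number did not deviate together (correlations −0.037, −0.025 and −0.030), so they share only a number. At this depth the widest interval of any tested member was that of Psmd10, the least abundant. The median coefficient of variation of members between libraries was 2.84% in sedentary and 3.20% in exercise.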
